A study of Mus musculus with 8 samples.

Results

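Wnt genes were compared in BMEL cells that had received either a plasmid for GRHL2 or an empty vector. The 49 genes were taken by symbol from the 18671 genes of the expression table: the Wnt, Fzd, Dkk, Sfrp, Tcf7, Axin, Rspo and Lgr families, together with Lrp5, Lrp6, Lef1, Rnf43, Znrf3, Nkd1 and Notum. BMEL is a line of bipotential mouse embryonic liver cells, which can give rise to hepatocyte-like and biliary-like cells. GRHL2 is a Grainyhead family transcription factor of epithelial cells. The GRHL2 samples received a construct, labelled pIGrhl2, that places a Flag-tagged human GRHL2 cDNA under the EF1A promoter and also encodes eGFP. The control samples received pcDNA3 (pcDNA). All cells grew on collagen in RPMI medium with serum, IGFII, EGF and insulin, and bulk RNA was taken 48 h after transfection from 4 biological replicates per group. Transfection was transient and the share of cells that took up a plasmid is not given in the sources used here, so a difference in the bulk RNA cannot be divided into responding cells and response per cell. Values are on a log2 scale after division by transcript length, and all differences are GRHL2 minus control on that scale. The authors' transformation shrinks differences of genes with few reads, so fold changes of low genes are understated. It also narrows the spread between replicates of such genes, so tight groups at low levels do not by themselves show precision. Read depth per sample is unknown.

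Wnt ligands are lipid-modified secreted proteins that bind Frizzled receptors. With the coreceptors Lrp5 and Lrp6, they stop the Axin-containing destruction complex from degrading β-catenin, which then acts with TCF/LEF factors on target genes. R-spondins acting through Lgr4, Lgr5 and Lgr6 keep the ubiquitin ligases Rnf43 and Znrf3 from clearing Frizzleds off the cell surface. Several targets, among them Axin2, Rnf43, Znrf3, Notum and Nkd1, act as brakes on the pathway. In the liver, Wnt signals from endothelial cells of the central vein maintain the pericentral hepatocyte program, and the pathway also acts in biliary and progenitor cells.

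Grhl2 itself, the transfected gene, read 6.30, 6.96, 5.65 and 6.05 in GRHL2 replicates 1 to 4 and 4.68, 4.57, 4.42 and 4.44 in the controls. The groups did not overlap and differed by 1.71 (SE 0.22; limma adjusted p = 0.001), and reads from the human cDNA that align to the mouse gene may be part of that value. All 9 liver progenitor and epithelial markers measured, of 10 listed, were expressed in the line, with means from 5.22 for Alb, the albumin gene, to 15.36 for the keratin gene Krt8. Within this class Epcam, an epithelial adhesion gene, was higher by 1.75 (limma adjusted p = 4.59e-07), a larger change than that of any Wnt gene, and Afp, the alpha-fetoprotein gene of fetal hepatocytes, fell by 0.21 (limma adjusted p = 0.0124). Krt19 and Sox9 were called higher with the replicate block, at 0.16 and 0.35. Of 8 fibroblast and stellate, 5 endothelial and 7 immune or blood markers listed, 4, 5 and 5 were measured. Pdgfrb and Vwf were called higher, at 0.11 and 0.21, where 10.5% of all genes were, and the remaining 12 were not called. With the replicate block, where 18.2% of all genes were higher, 4 of those 12 were called higher as well, namely Col1a1, Kdr, Tek and Cd68, at 0.13, 0.13, 0.09 and 0.16. Adding GC correction to the block removed the call of Col1a1 (limma adjusted p = 0.0519). Thus 3 of the 5 endothelial markers were called in the same direction as the Wnt genes. Pecam1, the endothelial marker with the highest mean, was lower by contrast, at -0.08 and in all 4 replicate pairs, and was not called in either model (limma adjusted p = 0.115 without and 0.0646 with the block). Cdh5, which defines endothelial cells, and Ptprc, which defines immune cells, had means of 1.23 and 0.90 in the controls. Highest among the markers of these other cell types were Cd68 and Col1a1, with control means of 6.08 and 5.22, beside 5.25 for Alb. The mean over the endothelial list lay between 2.16 and 2.29 in the GRHL2 samples and between 2.11 and 2.15 in the controls; over the fibroblast list it lay between 2.90 and 2.99 against 2.77 and 2.90. Over the immune list it lay between 2.35 and 2.39 against 2.32 and 2.35. The part of such cells in the results below was not tested. In all 4 pairs of equal replicate number, the GRHL2 and the control sample departed from their group means in a correlated way, so the result of blocking on that number is printed wherever it alters the call of a Wnt gene. Samples numbered 1 and 2, and those numbered 3 and 4, were also correlated across numbers.

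The Wnt genes that passed the test went up, led by the ligand gene Wnt7b, the secreted inhibitor gene Sfrp1 and the transcription factor genes Tcf7l1 and Lef1, and none was called lower. By limma with Benjamini-Hochberg adjustment over all genes, 23 of 49 (46.9%) were higher at an adjusted p below 0.05, where 10.5% of all genes were. None was lower, against 5.91% of all genes, and none was lower at an unadjusted p below 0.05, against 12.7%. These shares cover genes of all expression levels, and lower calls were not compared at like levels. With the replicate block, 31 were called higher (63.3%, against 18.2% of all genes) and again 0 lower (against 13.9%). These 31 included all 23, and the 8 called with the block but not without it were Fzd2, Fzd7, Fzd8, Lgr4, Lrp5, Rnf43, Wnt3a and Wnt7a. In 27 genes all 4 GRHL2 samples were above all 4 controls, against 14.3% of all genes, and no gene showed the reverse, against 9.47%. For each of the 27, an exact two-sided permutation test of the difference of means, over 70 assignments of the samples, gave p = 0.0286, the smallest p the design allows. The mean was higher with GRHL2 in 46 of the 49 genes, against 53.9% of all genes, and lower in Axin1, Fzd6 and Lrp6. A call together with a difference of at least 0.25 was reached by 11 of the 49, against 4.32% of all genes. Changes were small on the deposited scale: the median difference was 0.10, with quartiles of 0.04 and 0.26, beside a median of 0.01 over all genes. The median over the 49 genes was 0.12 within replicates 1 and 2 and 0.09 within replicates 3 and 4.

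**Figure D1:**
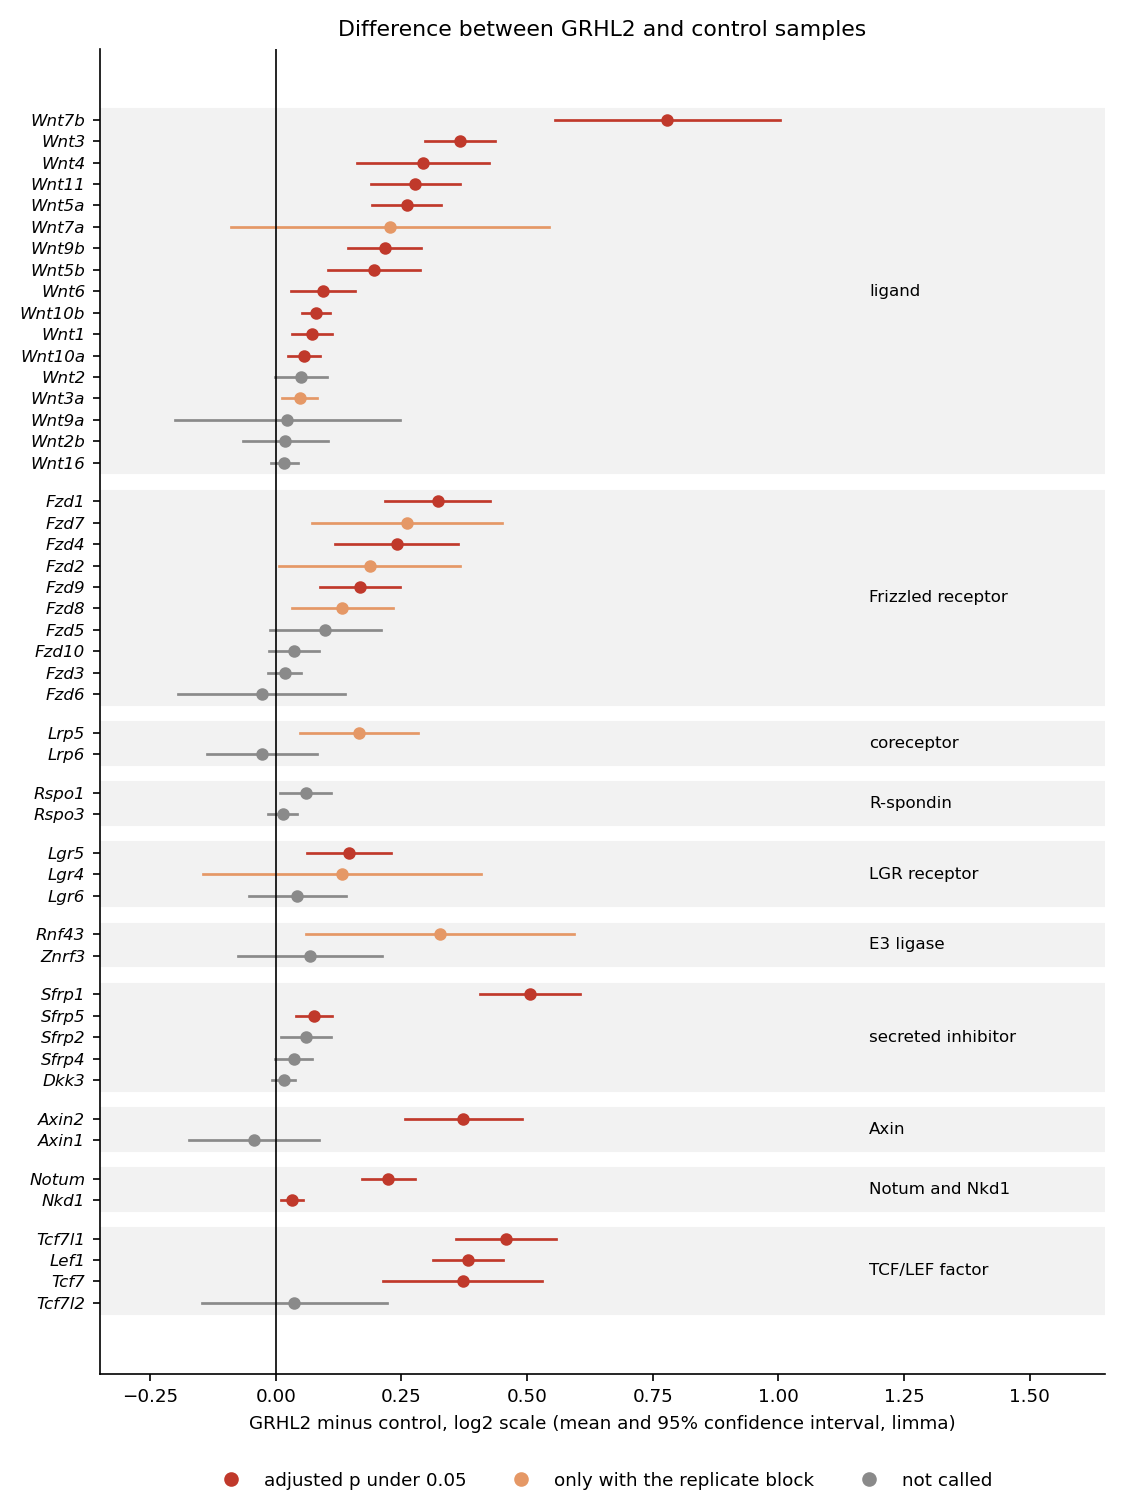
Difference of group means (GRHL2 minus control, log2 scale) for each of the 49 Wnt genes, grouped by role, with 95% confidence intervals from limma and with the call marked by colour. Wnt7b at 0.78, Sfrp1 at 0.51 and Tcf7l1 at 0.46 lie farthest from 0, and no interval lies wholly below it.

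The promoters of 6 Wnt genes that were called higher are shown because their start-site windows either hold a match to a Grainyhead or TCF/LEF motif (Wnt11, Wnt5b and Wnt1) or belong to genes among the larger changes that hold none (Tcf7l1, Axin2 and Wnt3). Each window runs from 250 bases before to 50 bases after the annotated start (RefSeq, GRCm38.p6) and is written 5′ to 3′ on the gene's strand, with matches in capitals. Tcf7l1 is at chr6:72788996-72789295 (minus strand), Axin2 at chr11:108920099-108920398 (plus), Wnt3 at chr11:103773925-103774224 (plus), Wnt11 at chr7:98834862-98835161 (plus), Wnt5b at chr6:119449337-119449636 (minus) and Wnt1 at chr15:98789607-98789906 (plus).

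Tcf7l1: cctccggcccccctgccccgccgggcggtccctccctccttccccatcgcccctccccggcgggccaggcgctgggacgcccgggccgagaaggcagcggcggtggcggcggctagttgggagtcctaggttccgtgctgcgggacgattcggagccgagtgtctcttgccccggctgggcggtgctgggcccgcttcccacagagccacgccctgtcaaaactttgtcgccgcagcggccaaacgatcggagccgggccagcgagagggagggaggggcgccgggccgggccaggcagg
Axin2: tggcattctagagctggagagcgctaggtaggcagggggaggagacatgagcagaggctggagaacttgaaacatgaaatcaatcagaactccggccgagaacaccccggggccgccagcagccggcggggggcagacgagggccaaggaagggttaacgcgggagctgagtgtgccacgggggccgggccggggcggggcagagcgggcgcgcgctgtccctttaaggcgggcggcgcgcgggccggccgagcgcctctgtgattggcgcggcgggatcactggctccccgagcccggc
Wnt3: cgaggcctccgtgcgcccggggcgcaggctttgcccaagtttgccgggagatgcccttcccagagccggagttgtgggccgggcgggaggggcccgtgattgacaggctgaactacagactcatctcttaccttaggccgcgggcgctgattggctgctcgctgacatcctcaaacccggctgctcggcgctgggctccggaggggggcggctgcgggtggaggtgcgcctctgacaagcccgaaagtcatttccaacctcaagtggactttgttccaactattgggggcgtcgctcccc
Wnt11: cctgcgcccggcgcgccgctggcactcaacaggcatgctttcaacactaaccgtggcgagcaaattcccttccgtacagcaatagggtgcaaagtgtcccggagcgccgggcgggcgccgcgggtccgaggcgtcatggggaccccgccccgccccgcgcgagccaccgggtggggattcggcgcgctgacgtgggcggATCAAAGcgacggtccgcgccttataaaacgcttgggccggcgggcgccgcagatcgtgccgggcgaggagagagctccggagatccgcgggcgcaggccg
Wnt5b: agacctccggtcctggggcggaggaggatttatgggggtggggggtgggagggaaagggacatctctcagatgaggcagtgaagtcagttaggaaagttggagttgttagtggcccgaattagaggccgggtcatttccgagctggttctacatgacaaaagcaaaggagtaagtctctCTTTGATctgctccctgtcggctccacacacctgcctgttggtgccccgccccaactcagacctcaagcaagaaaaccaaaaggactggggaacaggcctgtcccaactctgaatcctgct
Wnt1: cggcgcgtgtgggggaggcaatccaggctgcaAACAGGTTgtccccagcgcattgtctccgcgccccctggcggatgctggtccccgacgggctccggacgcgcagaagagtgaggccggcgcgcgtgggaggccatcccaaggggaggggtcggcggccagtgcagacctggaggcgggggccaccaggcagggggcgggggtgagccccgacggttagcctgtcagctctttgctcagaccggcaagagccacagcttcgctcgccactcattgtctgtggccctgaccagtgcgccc

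Both strands were searched for AACNGGTT, the loose Grainyhead motif, for AACCGGTT, its stricter form and so a subset of the same matches, and for CTTTGAT, a TCF/LEF motif. Windows were on hand for 32 of the 49 Wnt genes, 41 windows in all. AACNGGTT occurred in 1 of these, that of Wnt1, and in 2.09% of all 32851 mouse windows. AACCGGTT occurred in none of the 41 and in 0.146% of all windows. CTTTGAT occurred in the windows of Wnt11 (on the minus strand, seen above as ATCAAAG) and Wnt5b, and in 3.73% of all windows. A match describes these letters alone, and their absence from a window of this length says nothing of sites elsewhere.

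Ligands made up the largest role, and 11 of 17 were called higher without the block and 13 with it, against 10.5% and 18.2% of all genes. After GC correction 7 were called, against 9.59%. Wnt7a and Wnt7b, close relatives that signal through β-catenin, were the ligands with the highest levels per length. Wnt7b read 9.54, 9.75, 9.39 and 9.23 in GRHL2 replicates 1 to 4 and 8.75, 8.79, 8.64 and 8.62 in the controls. Every GRHL2 sample lay above every control, and the difference of 0.78, or 1.72-fold, had a 95% confidence interval of 0.56 to 1.0 (limma adjusted p = 0.000965). It was the largest difference among the 49 Wnt genes. Wnt7a read 9.95, 10.12, 9.58 and 9.48 with GRHL2 and 9.70, 9.71, 9.43 and 9.38 without. Its groups overlapped, since GRHL2 replicates 3 and 4 lay below control replicates 1 and 2. The difference of 0.23 was not called without the block (limma adjusted p = 0.313) but was called with it (adjusted p = 0.011), each GRHL2 sample being above the control of its own number. Whether Wnt7a and Wnt7b responded differently was not tested.

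Wnt3, a β-catenin ligand, read 2.72, 2.78, 2.64 and 2.65 in the GRHL2 samples and 2.31, 2.35, 2.33 and 2.34 in the controls. The spread within each group was far smaller than the gap between them, a difference of 0.37 (SE 0.031; limma adjusted p = 0.000132). Wnt4, a ligand of kidney and gonad development, read 3.80, 3.79, 3.80 and 3.89 with GRHL2 and 3.41, 3.43, 3.59 and 3.68 without. The control values were higher in replicates 3 and 4 than in 1 and 2, and the groups still did not overlap, at a difference of 0.29 (SE 0.059; limma adjusted p = 0.00894). GRHL2 replicate 4 stood above its 3 near-equal partners.

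Wnt11 and Wnt5a, which are best known for β-catenin-independent signalling in cell polarity and movement, also rose. Wnt11 read 3.54, 3.63, 3.45 and 3.50 in the GRHL2 samples and 3.29, 3.27, 3.24 and 3.21 in the controls. Wnt5a read 4.06, 4.13, 4.16 and 4.13 in the GRHL2 samples and 3.89, 3.84, 3.84 and 3.86 in the controls. Neither gene's groups overlapped, and the differences were 0.28 for Wnt11 (limma adjusted p = 0.0016) and 0.26 for Wnt5a (limma adjusted p = 0.00066). Wnt5b, the paralog of Wnt5a, read 2.44, 2.63, 2.43 and 2.47 against 2.31, 2.28, 2.28 and 2.33. Wnt9b, which acts in kidney tubule formation, read 1.09, 1.21, 1.03 and 1.09 against 0.89, 0.89, 0.88 and 0.88. In both, GRHL2 replicate 2 was the highest sample and no control reached the lowest GRHL2 value. The differences were 0.20 for Wnt5b (limma adjusted p = 0.0112) and 0.22 for Wnt9b (limma adjusted p = 0.00214).

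Wnt6 showed how small the deposited difference of a called gene could be at a low level, where the authors' transformation shrinks differences. It read 1.37, 1.51, 1.40 and 1.38 in the GRHL2 samples and 1.32 in each control, so that the difference of 0.09 rested on GRHL2 samples of which replicate 2 was the highest (limma adjusted p = 0.0498). Corrected for GC content, its difference was 0.03 and was no longer called (limma adjusted p = 0.608), and it also lost its call without GRHL2 replicate 3 or any 1 control, at adjusted p values of up to 0.106. Wnt10b, Wnt1 and Wnt10a were called at differences of 0.08, 0.07 and 0.06, also at low levels. Wnt3a, at 0.05, was called with the block (limma adjusted p = 0.0419) but not without it, nor with the block after GC correction (0.01, limma adjusted p = 0.64). Wnt9a, a well-expressed ligand with a mean of 5.18, read 5.26, 5.42, 4.95 and 5.16 with GRHL2 and 5.05, 5.38, 5.18 and 5.08 without. Its groups overlapped throughout, and the confidence interval of its difference ran from -0.20 to 0.25. Wnt2, Wnt2b and Wnt16 were not called in either model, with differences from 0.02 to 0.05.

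**Figure D2:**
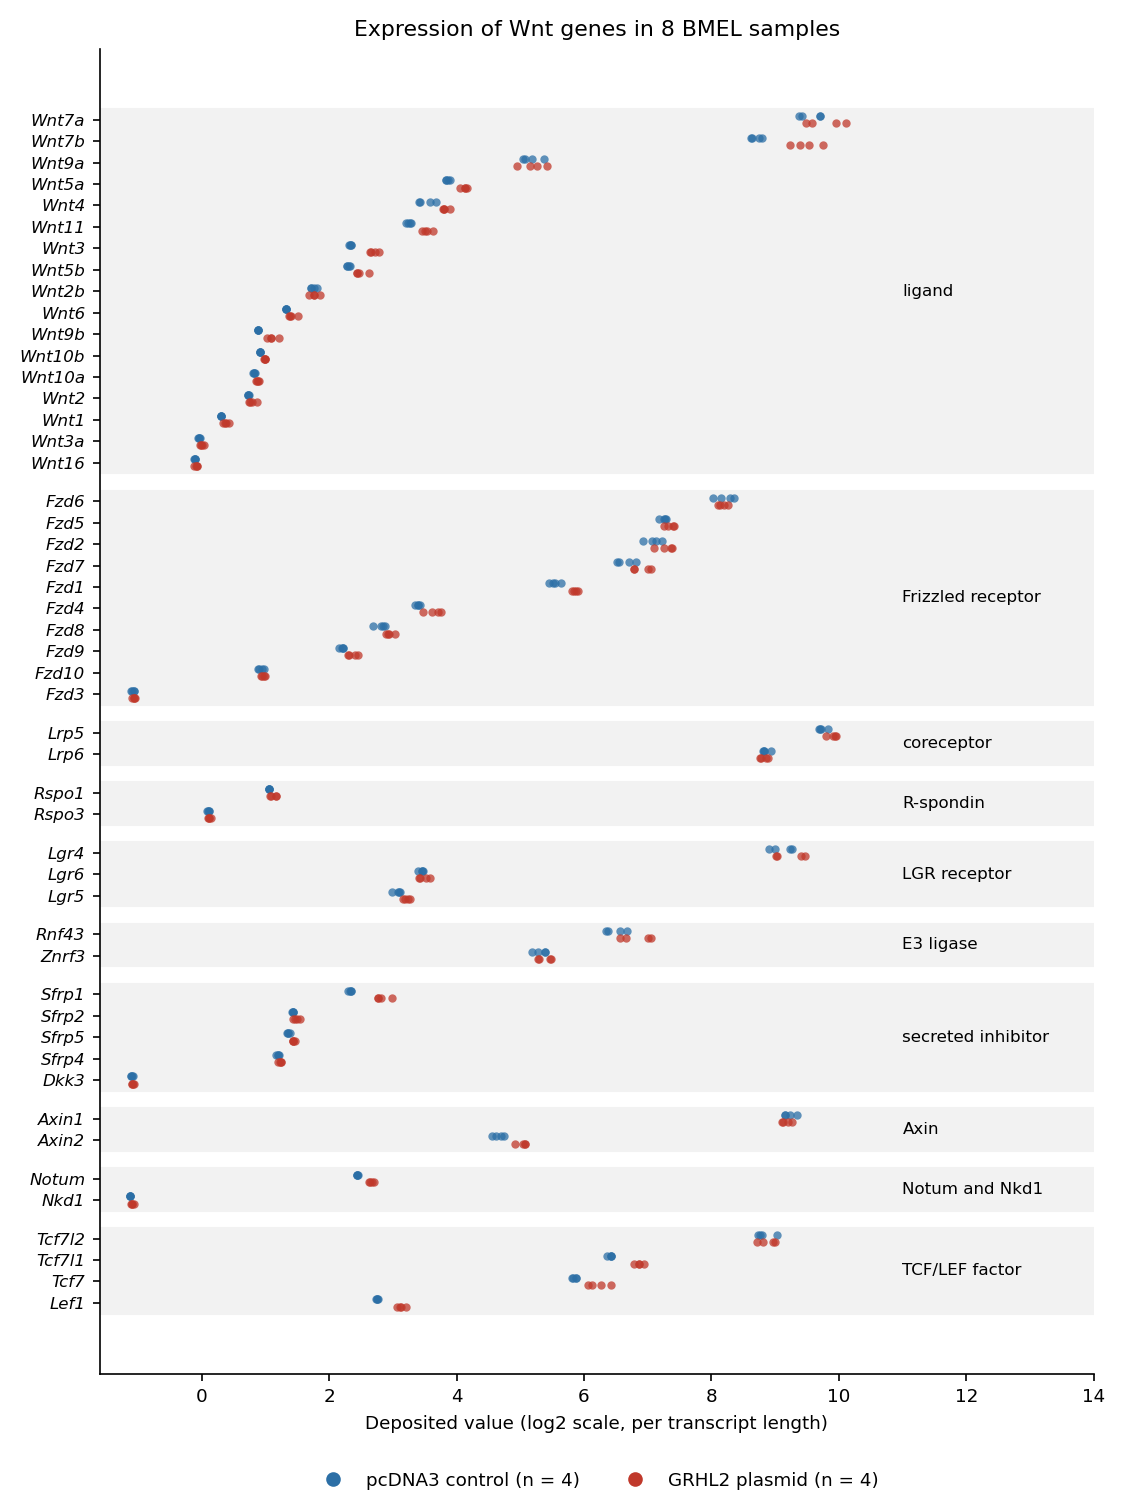
Deposited log2 value of each of the 49 Wnt genes in each of the 8 samples, grouped by role, with GRHL2 and control samples in different colours. Wnt7a, Wnt7b, Lrp5, Lrp6, Lgr4, Axin1, Tcf7l2 and Fzd6 form the upper end, above 8, and all ligands other than Wnt7a, Wnt7b and Wnt9a have means below 4.

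Several Wnt ligand genes sit side by side in the mouse genome (GRCm38), and the list holds 4 such pairs. Wnt3 and Wnt9b lie 24.3 kb apart on chromosome 11, Wnt6 and Wnt10a 6.19 kb apart on chromosome 1, and Wnt10b and Wnt1 11.7 kb apart on chromosome 15, and all 6 genes were called higher. Of all 17 ligands 11 were, against 10.5% of all genes, and whether adjacent ligands differed from the others was not tested. Wnt3a and Wnt9a lie 16.2 kb apart on chromosome 11, and neither was called without the block, whereas Wnt3a alone was called with it. After GC correction Wnt6, Wnt10a, Wnt10b and Wnt1 were no longer called, nor was Wnt3a with the block. Reads that run from a gene into its neighbour were not examined here.

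Of 10 Frizzled receptors, 3 were called higher without the block and 6 with it, against 10.5% and 18.2% of all genes, and 2 after GC correction, against 9.59%. Fzd1 read 5.85, 5.87, 5.82 and 5.91 in the GRHL2 samples and 5.64, 5.45, 5.52 and 5.55 in the controls. The groups were apart and the difference was 0.32 (SE 0.047; limma adjusted p = 0.00181). Fzd4, also the receptor of the non-Wnt ligand Norrin, read 3.61, 3.47, 3.75 and 3.71 with GRHL2 and 3.39, 3.40, 3.43 and 3.35 without. The GRHL2 samples were all higher but more spread, with replicate 2 close to the controls, and the difference was 0.24 (limma adjusted p = 0.0154). Fzd9 read 2.40, 2.45, 2.31 and 2.30 in the GRHL2 samples against 2.15, 2.20, 2.22 and 2.21. Its difference of 0.17 was called (limma adjusted p = 0.0115) but not after GC correction (limma adjusted p = 0.0938), unless the block was added to it (limma adjusted p = 0.0412).

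Fzd7 and Fzd2, the related Frizzleds with higher levels, rose within each replicate pair while their groups overlapped. Fzd7 read 6.78, 6.79, 7.06 and 7.00 with GRHL2 and 6.52, 6.55, 6.71 and 6.81 without. Fzd2 read 7.26, 7.10, 7.38 and 7.36 with GRHL2 and 7.07, 6.92, 7.23 and 7.13 without. In both, replicates 3 and 4 were higher than 1 and 2 in both groups. The difference of Fzd7 was 0.26, with limma adjusted p = 0.0637 without the block and 0.00157 with it, and it was called without the block under an equal upper quartile (0.0394) or without control replicate 4 (0.0408). The difference of Fzd2 was 0.19, with limma adjusted p = 0.147 and 0.00562. Fzd8 read 2.92, 3.03, 2.89 and 2.94 against 2.69, 2.82, 2.85 and 2.88. All 4 GRHL2 samples lay above the controls by a narrow margin, and the difference of 0.13 was called with the block (limma adjusted p = 0.0272) but not without it (0.073), though it was called there with samples scaled to an equal upper quartile (0.0358).

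Fzd6, the Frizzled with the highest level per transcript length and known for planar polarity, was among the 3 Wnt genes with a lower mean. It read 8.20, 8.26, 8.14 and 8.11 in the GRHL2 samples and 8.30, 8.35, 8.02 and 8.15 in the controls. The groups were intermixed and the difference of -0.03 had a confidence interval of -0.19 to 0.14 (limma adjusted p = 0.834). Fzd5, Fzd10 and Fzd3 were not called in either model, at differences of 0.10, 0.04 and 0.02, although Fzd3 was called when GC correction was added to the block.

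The coreceptors differed in call. Lrp5 read 9.91, 9.80, 9.96 and 9.94 with GRHL2 and 9.69, 9.72, 9.71 and 9.83 without, the highest mean of the 49 genes per length. GRHL2 replicate 2 lay below control replicate 4, and the difference of 0.17 was called with the block but not without it (limma adjusted p = 0.0147 and 0.0591). It was also called without the block when samples were scaled to an equal upper quartile (0.0305), without the mean-variance trend (0.0442), and without GRHL2 replicate 2 (0.0339) or control replicate 4 (0.0409). Lrp6 had a difference of -0.03, with a confidence interval of -0.14 to 0.08, and was not called in either model. The difference between the coreceptors' responses was not tested.

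Of the R-spondin ligands, their Lgr receptors and the ligases, 7 genes in all, Lgr5 was called without the block, and Lgr4 and Rnf43 joined it with the block, against 10.5% and 18.2% of all genes. Rspo1 read 1.16, 1.09, 1.17 and 1.07 with GRHL2 and 1.06 in each control. All GRHL2 samples were above the controls by little, and the difference of 0.06 was not called in either model (limma adjusted p = 0.1 without and 0.0631 with the block), but was called with an equal upper quartile (0.0273) or without GRHL2 replicate 4 (0.045). Rspo3 differed by 0.01 and was not called.

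Lgr5, the R-spondin receptor that marks Wnt-dependent stem cells of the intestine and is itself a Wnt target, read 3.16, 3.24, 3.27 and 3.19 in the GRHL2 samples and 3.10, 3.12, 3.08 and 2.98 in the controls. The groups did not overlap, at a difference of 0.15 (SE 0.037; limma adjusted p = 0.0266). The call was lost without GRHL2 replicate 2, GRHL2 replicate 3 or control replicate 3, at limma adjusted p values of 0.053, 0.0698 and 0.0546. Lgr4, the receptor of this family with the highest level here, read 9.03, 9.01, 9.41 and 9.47 with GRHL2 and 8.90, 9.00, 9.23 and 9.26 without. Replicates 3 and 4 were higher than 1 and 2 in both groups, and the difference of 0.13 was called with the block but not without it (limma adjusted p = 0.0429 and 0.518). Lgr6 was not called, at 0.04.

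Rnf43, the ligase that removes Frizzleds, read 6.66, 6.56, 7.00 and 7.06 in the GRHL2 samples and 6.35, 6.37, 6.57 and 6.67 in the controls. GRHL2 replicates 1 and 2 overlapped control replicates 3 and 4, while each GRHL2 sample was above its own control. Its difference of 0.33 was as large as that of Fzd1 but was called with the block and not without it (limma adjusted p = 0.00116 and 0.0904), except when GRHL2 replicate 2 was left out (0.0357). Znrf3, the related ligase, was not called in either model, at 0.07.

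Sfrp1, a secreted decoy that binds Wnts, had the second largest change. It read 2.82, 2.98, 2.76 and 2.77 in the GRHL2 samples and 2.30, 2.34, 2.34 and 2.32 in the controls. The controls were tightly grouped and every GRHL2 sample was well above them, at a difference of 0.51 or 1.42-fold (SE 0.044; limma adjusted p = 0.000163). Sfrp5 was called higher at 0.08 (limma adjusted p = 0.0106), but not after GC correction (0.02, limma adjusted p = 0.584). Sfrp2, Sfrp4 and Dkk3 were not called in either model, at 0.06, 0.04 and 0.02, so 2 of the 5 secreted inhibitors were called, against 10.5% of all genes, and 1 after GC correction, against 9.59%.

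Among the intracellular and extracellular brakes, Axin2 rose and Axin1 did not pass the test. Axin2, a scaffold of the destruction complex and a widely used readout of β-catenin activity, read 5.07, 5.08, 5.04 and 4.91 with GRHL2 and 4.62, 4.56, 4.74 and 4.69 without. The lowest GRHL2 sample, replicate 4, was above the highest control, and the difference was 0.37 or 1.29-fold (SE 0.052; limma adjusted p = 0.00147). Axin1, the constitutive scaffold, read 9.21, 9.27, 9.13 and 9.11 with GRHL2 and 9.24, 9.34, 9.16 and 9.15 without. Each GRHL2 sample lay slightly below its own control, though the groups overlapped, and the difference of -0.04 was not called in either model (limma adjusted p = 0.664 without and 0.38 with the block). Notum, an extracellular enzyme that removes the lipid of Wnts, read 2.63, 2.67, 2.71 and 2.64 against 2.44, 2.45, 2.44 and 2.44. Both groups were tight and apart, at a difference of 0.22 (SE 0.024; limma adjusted p = 0.000361). Nkd1, an inhibitor of Dishevelled, was called at 0.03 (limma adjusted p = 0.0485) with a mean of -1.10, near the bottom of the scale, and lost its call after GC correction (limma adjusted p = 0.799).

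TCF/LEF factors, the DNA-binding partners of β-catenin, rose in 3 of 4 genes without the block, with it and after GC correction, against 10.5%, 18.2% and 9.59% of all genes. Tcf7l1, mainly a repressor, read 6.87, 6.94, 6.79 and 6.87 in the GRHL2 samples and 6.36, 6.43, 6.42 and 6.43 in the controls. The groups were widely apart, at a difference of 0.46 or 1.37-fold (SE 0.044; limma adjusted p = 0.000236). Lef1, an activator that is itself a Wnt target in many tissues, read 3.12, 3.21, 3.13 and 3.06 with GRHL2 and 2.75, 2.76, 2.73 and 2.75 without. Every GRHL2 sample was above the nearly equal controls, and the difference was 0.38 (SE 0.031; limma adjusted p = 0.000108). Tcf7 read 6.26, 6.42, 6.13 and 6.07 with GRHL2 and 5.87, 5.88, 5.83 and 5.81 without. The GRHL2 samples were higher but more spread, replicate 2 being the highest, and the difference was 0.37 (SE 0.071; limma adjusted p = 0.00692).

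Tcf7l2, the family member with the highest level, read 8.72, 8.81, 8.96 and 9.00 in the GRHL2 samples and 8.73, 8.79, 8.77 and 9.03 in the controls. Its groups were intermixed, and the difference of 0.04 had a confidence interval of -0.15 to 0.22 (limma adjusted p = 0.804). Of the 8 Wnt genes often described as feedback targets of β-catenin (Axin2, Lgr5, Notum, Nkd1, Rnf43, Znrf3, Lef1 and Tcf7), 6 were called higher without the block and 7 with it, against 10.5% and 18.2% of all genes, and Znrf3 was called in neither. Of these calls, that of Nkd1 was lost after GC correction (limma adjusted p = 0.799) and that of Lgr5 with samples scaled to an equal median (limma adjusted p = 0.106). This grouping was made after the values were seen and is a description alone.

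**Figure D3:**
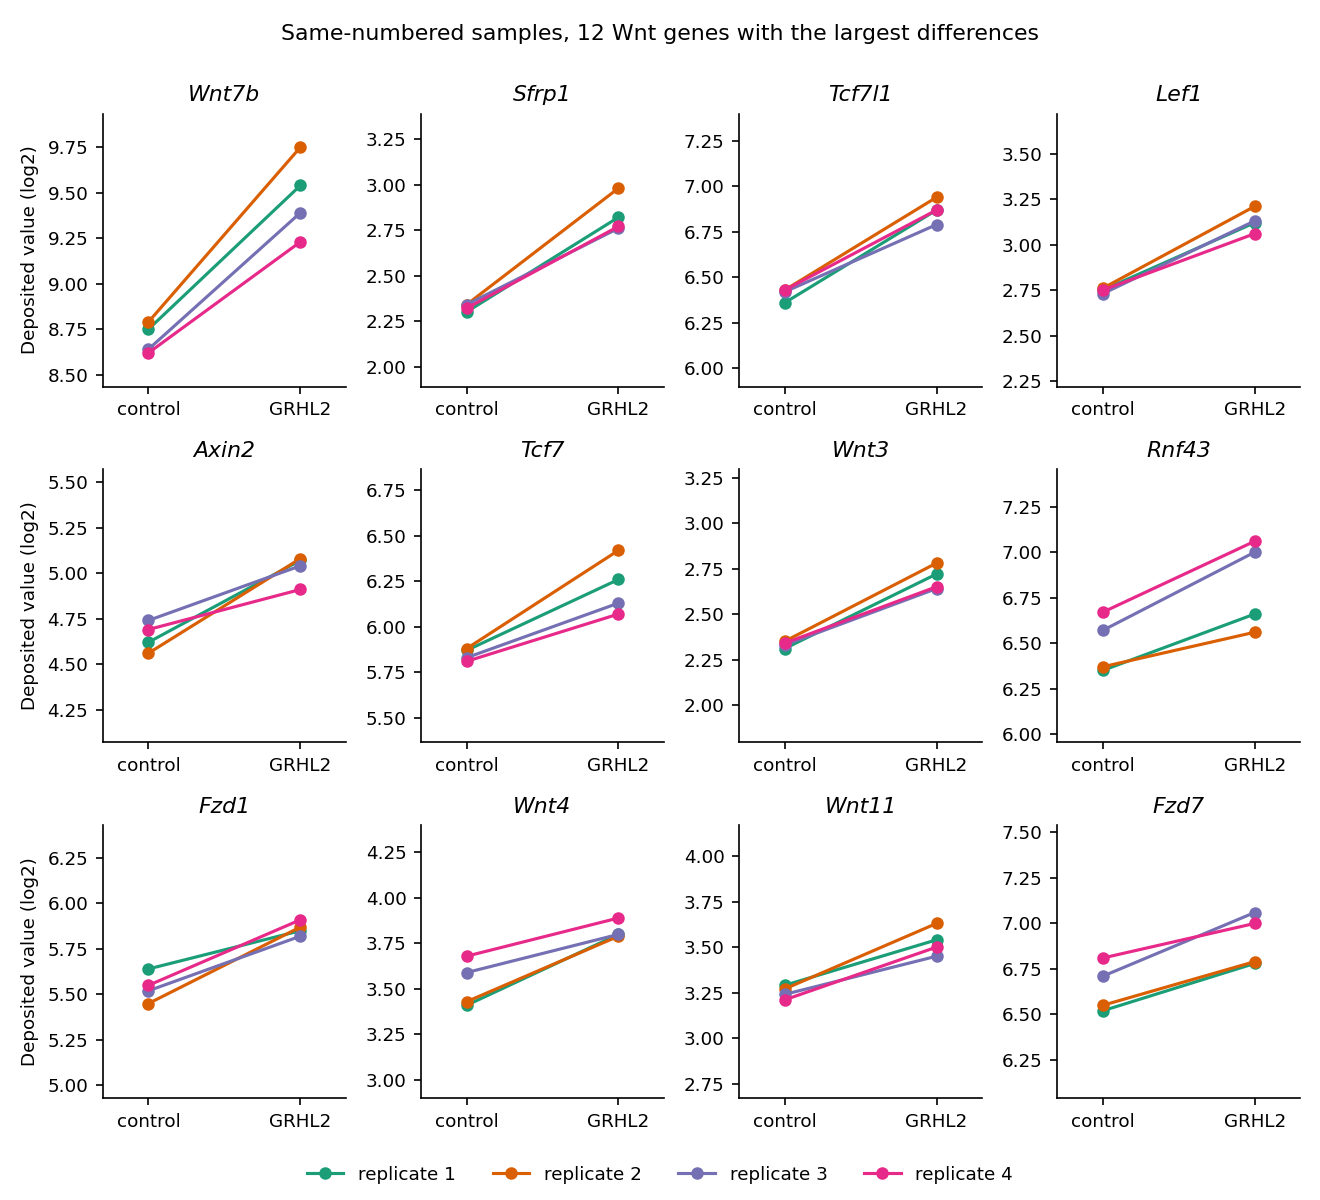
Deposited log2 values of the 12 Wnt genes with the largest differences among those called without or with the replicate block, with lines joining the control and GRHL2 samples of the same replicate number. All lines rise, and for Rnf43 and Fzd7 the groups overlap although each pair rises.

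The Wnt genes called higher lay mostly at intermediate expression levels. The level was estimated by adding back the log2 of the mean transcript length in kb, so it follows reads per gene rather than reads per length. Of 17 genes with an estimated level below 3, 6 were called higher (11.4% of all genes at that level were). Of 21 genes between 3 and 8, 16 were called (17.3% of all genes). At 8 and above, 1 of 11 was called, namely Wnt7b, against 5.38% of all genes, and with the replicate block 6 of 11, against 14.8%. Of all 18671 genes, 8157 lay at 8 and above. Lower calls over all genes were not split by level, so their absence among the Wnt genes was not compared at like levels. The deposited differences of the Wnt genes at the lowest levels were small, from 0.03 to 0.09 for those called, and are shrunken by the authors' transformation.

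**Figure D4:**
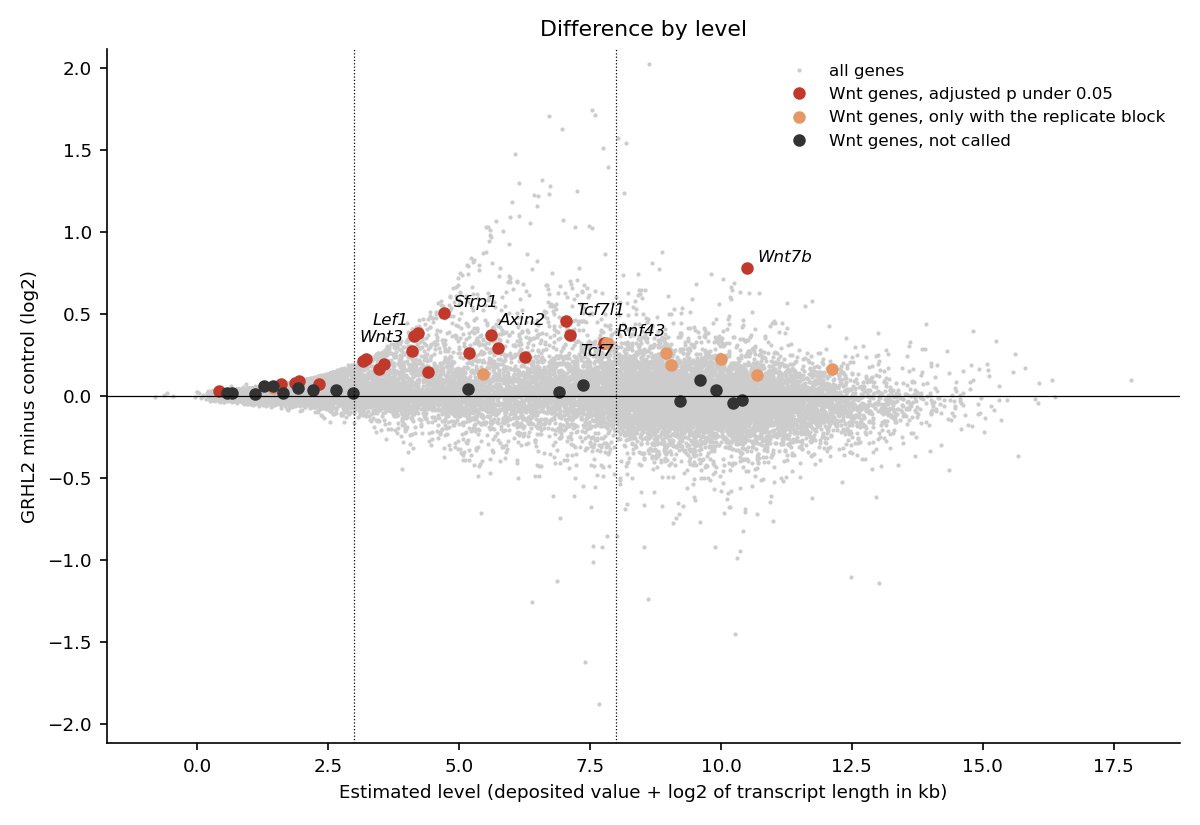
Difference (GRHL2 minus control, log2 scale) against the estimated level of each of the 49 Wnt genes, marked by call, over all genes in grey, with dotted lines at levels of 3 and 8. Wnt7b is the 1 gene called without the block at a level of 8 or more.

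Transcripts of the Wnt genes were richer in G and C than most, with a median GC content of 55.7% against 50.6% over all genes, and GC content is a known source of bias between libraries. After a correction of each sample for GC content, 16 Wnt genes were called higher, against 9.59% of all genes, and the median difference was 0.06. The 7 that lost their call were Fzd9, Nkd1, Sfrp5, Wnt1, Wnt10a, Wnt10b and Wnt6, among them all 6 called genes with an estimated level below 3. With both GC correction and the replicate block, 25 were called, against 16.9%: 7 of the 31 called with the block alone were lost, and Fzd3 was gained, at a corrected difference of 0.05 (limma adjusted p = 0.0263). GC correction also turned the sign of 4 Wnt genes, to -0.0153 for Wnt10a, which had been called higher, and to -0.0104, -0.0243 and -0.0032 for the uncalled Wnt9a, Wnt2b and Rspo1. Scaling all samples to an equal median left 15 Wnt genes called higher, against 5.99% of all genes, and scaling to an equal upper quartile gave 30, against 16.4%. None was called lower under either scaling, against 6.73% and 5.21% of all genes.

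Replicates 1 and 2 stood apart from replicates 3 and 4 in both groups. In 31 of the 49 Wnt genes the mean of replicates 1 and 2 departed from that of replicates 3 and 4 in the same direction with GRHL2 and without it: 12 were lower and 19 were higher in replicates 1 and 2. Fzd7, Lgr4 and Rnf43 were among the lower, and Wnt7a and Wnt7b among the higher. The labels give no date or batch that goes with these numbers. The replicate block takes this spread out of the error.

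Other genes of the pathway were called in both directions. Of 105 listed, 97 were in the table, and 23 (23.7%) were called higher and 4 (4.12%) lower, against 10.5% and 5.91% of all genes. With the replicate block 36 (37.1%) were called higher and 9 (9.28%) lower, against 18.2% and 13.9% of all genes, so the share called lower was under that of all genes in both models. All lower calls fell among the 57 of these genes with an estimated level of 8 or more, where 11 of the 49 Wnt genes lay. None of the 12 below 3 or the 27 between 3 and 8 was called lower in either model. The median level was 9.00, against 4.41 for the Wnt genes. After GC correction 20 were called higher, with Ror2, Kremen2, Tpbg and Ascl2 losing their calls and Cd44 gaining one. With GC correction and the block together 32 were, against 16.9% of all genes, Ror2, Ascl2, Dact3 and Cyp1a2 losing the calls they had with the block. Receptors were called higher in 6 of 9 and antagonists in 7 of 9, against 10.5% of all genes. With the block 6 and 8 were, against 18.2%, and after GC correction 5 and 5, against 9.59%. The antagonist Apcdd1 was called lower with the block, at -0.15 (limma adjusted p = 0.0245), and Frzb, also an antagonist, and Porcn, which lipidates Wnts, were called higher there, at 0.09 and 0.23. Adgra2, which together with Reck forms a receptor complex selective for Wnt7a and Wnt7b, rose by 0.71 (limma adjusted p = 0.00019), and Reck rose by 0.12 (limma adjusted p = 0.0446). Nkd2, the paralog of Nkd1, rose by 0.61 (limma adjusted p = 0.00012) and Lrp4, a relative of the coreceptors, by 0.37 (limma adjusted p = 0.000549). The remaining receptors called were Sdc4, Gpc4 and Ror2, at 0.18, 0.11 and 0.04. Kremen1, Kremen2, Tpbg, Draxin, Trabd2b and Wif1 were the other antagonists called, at 0.05 to 0.23.

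Planar polarity genes, which orient cells within an epithelial sheet, were called higher in 6 of 15, without and with the block, against 10.5% and 18.2% of all genes. Celsr2, an atypical cadherin of this system, rose by 0.50 (limma adjusted p = 0.000329). Prickle3, Vangl2, Celsr3, Vangl1 and Celsr1 rose by 0.38, 0.30, 0.29, 0.24 and 0.24. Of 12 transducers and 14 genes of the destruction complex, limma called 0 higher without the block, against 10.5% of all genes. At an unadjusted p below 0.05, 3 transducers and 0 genes of the destruction complex were higher, beside 35.1% of the 97 pathway genes. The share of all genes higher at that threshold is not given here. With the block, 2 transducers were called higher (Dact3 and Ccdc88c) and 2 lower (Dvl2 and Csnk1e), and in the destruction complex 1 was called higher (Ctnnb1) and 3 lower (Fbxw11, Tnks and Usp34), against 18.2% of all genes higher and 13.9% lower. Dact3 was no longer called when GC correction was added to the block (limma adjusted p = 0.593). Whether these roles differed from the others was not tested. Without the block, Dvl2, a Dishevelled, fell by 0.26 (limma adjusted p = 0.00851) and Fbxw11, a ubiquitin ligase adaptor for β-catenin, fell by 0.23 (limma adjusted p = 0.0402). Ctnnb1, which encodes β-catenin, differed by 0.10 (limma adjusted p = 0.464) and was called with the block (adjusted p = 0.037). Of 14 nuclear cofactors, 2 were called higher and 1 lower without the block, against 10.5% and 5.91% of all genes, and 5 and 1 with it, against 18.2% and 13.9%. Bcl9l and Pygo1, both coactivators of β-catenin, rose by 0.28 and 0.19, and Chd8, a chromatin remodeller that restrains it, fell by 0.24. Bcl9, Tle2 and Tle3, of which the Tle genes encode corepressors, were called higher with the block but not without it, at 0.20, 0.33 and 0.21.

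Of 16 target genes outside the 49, 2 were called higher and 1 lower without the block, against 10.5% and 5.91% of all genes, and 6 and 2 with it, against 18.2% and 13.9%. Tnfrsf19 rose by 0.16, Ascl2 rose by 0.12 but not after GC correction (limma adjusted p = 0.221), and Jun, which many signals other than Wnt also regulate, fell by 0.92 (limma adjusted p = 0.00333). Those called with the block but not without it were Sox9, Tbx3, Cd44 and Ptch1, higher by 0.35, 0.25, 0.18 and 0.15, and Fosl1, which fell by 0.41. Myc and Ccnd1, targets in intestinal tumours, were not called in either model, at differences of 0.03 and 0.07. None of the 6 pericentral liver targets in the table was called without the block, against 10.5% of all genes, at differences of -0.04 to 0.08. At an unadjusted p below 0.05, 1 of these 6 was higher, Cyp1a2, beside 35.1% of the 97 pathway genes. Cyp1a2 was also called with the block (limma adjusted p = 0.0491), where 18.2% of all genes were higher. It was not called when GC correction was added to the block (limma adjusted p = 0.0672).

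**Figure D5:**
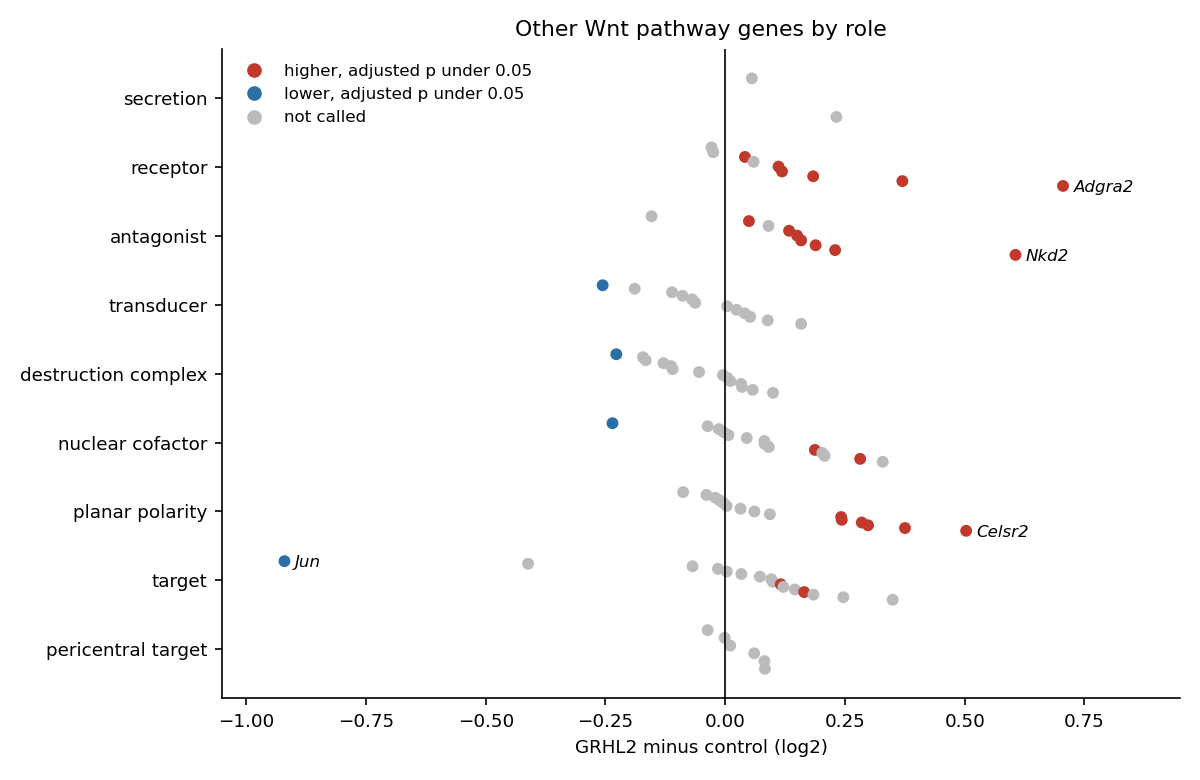
Differences (GRHL2 minus control, log2 scale) of the 97 other Wnt pathway genes by role, 1 point per gene, with calls in colour and named genes labelled. Higher calls lie mostly among receptors, antagonists and planar polarity genes, and Jun at -0.92 is the lowest point.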

How the data were processed

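Expression was measured by paired-end RNA-seq of total RNA from 8 BMEL samples, 4 per plasmid. Values were used as deposited by the authors, on a log2 scale: per the study's methods, reads were mapped to mm10, counted on exons without regard to strand (so a gene and an antisense partner cannot be told apart), genes with under 10 cumulated reads were removed, and DESeq2's regularized logarithm was adjusted for transcript length. Those methods describe this for the study's RNA-seq at large, and the table's name refers to FPKM although 4.81% of values are negative, so the log2 reading rests on the values too. The submitters' processing notes name HISAT2 2.2.1, HTSeq 0.9.1 and DESeq2 1.40.2. Counts and depth were not used here, which leaves the precision of low genes unknown.

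All 18671 genes were fitted in limma 3.58.1 (R 4.3.3) with 2 groups and a mean-variance trend, with Benjamini-Hochberg adjustment and a call at adjusted p below 0.05. Single values were also tested by exact permutation. On simulated data for the GRHL2 comparison, 94 of 100 genes changed by 0.5 and 99 of 100 changed by 1.0 were recovered, with 17 false calls. Simulated samples were independent, without the correlation between replicates given next. Both sizes exceed the upper quartile of the Wnt differences, 0.26, so the recovery of most changes reported here was not gauged. Deviations from the group means correlated between same-numbered samples (r = 0.474, 0.565, 0.549 and 0.645 for numbers 1 to 4), so the replicate number was taken as pairing the samples from the data, not from the labels. Differently numbered samples also correlated within numbers 1 and 2 (0.436 and 0.344) and within 3 and 4 (0.602 and 0.500), GRHL2 replicate 3 more with control 4 than with control 3, and correlated negatively between these sets (-0.399 to -0.611), so the block also takes up this split. GC content, coordinates and the transcript lengths behind estimated levels came from GENCODE M21 (GRCm38), and GC correction was a lowess fit per sample with a span of 0.3.

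Values in every sample are given for the 25 called genes with the largest differences (called with or without the block) and for the gene with the highest mean in each role. Wnt9a was added after its values were seen. The Wnt genes, the pathway and marker lists and the tests were chosen with earlier results of these data known. Alternatives covered the block, a term for replicates 1 and 2 against 3 and 4, scaling, a filter on low values, no trend, a minimum difference and leaving out each sample. The result of 1 marker gene is not reported here.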

Additional observations from a re-analysis of the deposited data

Results flagged for a closer look

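In 60 groups of 4 samples (29 named Wnt genes and Grhl2 in both conditions), 2 held a sample far from the other 3 by Dixon's criterion, where chance gives about 1 in 20. Control replicate 1 was the lowest control for Tcf7l1 at 6.36, and GRHL2 replicate 4 was the highest GRHL2 sample for Wnt4 at 3.89. Both genes were called higher in every leave-one-out fit, at differences of 0.43 to 0.48 for Tcf7l1 and 0.25 to 0.34 for Wnt4.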

How the results depend on the processing

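The count of 23 Wnt genes called higher fell to 15 with samples scaled to an equal median and to 11 with a required difference of at least 0.25 (4.32% of all genes pass both conditions in that direction), and ranged from 19 to 24 when a sample was left out. No alternative called a Wnt gene lower. The median difference of the 49 genes was 0.0577 with GC correction, without and with the replicate block, 0.0683 with an equal median, 0.1211 with an equal upper quartile and 0.1390 over genes with a mean of at least 0. It was 0.1176 within replicates 1 and 2, 0.0860 within replicates 3 and 4 and 0.0793 to 0.1264 with a sample left out. GC correction and the within-replicate values were chosen after seeing the data.

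For the other pathway genes, 36 were called higher with the replicate block or with the batch term for replicates 1 and 2 against 3 and 4, 14 with an equal median, and 17 to 23 with a sample left out. Those called lower were 9 with the replicate block, without or with GC correction, 8 with the batch term, and 2 to 4 with a sample left out, 2 being reached without GRHL2 replicate 3 or 4 or control replicate 1 or 2. The direction reversed for Fzd6 without control replicate 1 (0.0021) or 2 (0.0213), within a range of -0.0891 to 0.0213 over the samples left out, and for Tcf7l2 without GRHL2 replicate 4, within a range of -0.0053 to 0.1030. It also reversed for Rspo1 with GC correction, without and with the block (-0.0032), and none of these was called. GC correction likewise turned the sign of Wnt10a, which had been called (0.06 to -0.0153), and of the uncalled Wnt9a (-0.0104) and Wnt2b (-0.0243). Apart from leaving out samples, 243 of 290 values kept their direction and side of the threshold, or moved by less than the spread between replicates, and 216 of 232 did so with a sample left out. The cause of these changes was not tested.

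The replicate block changed the calls given beside each gene above and no call of the other genes named with values in every sample. Fzd9 and Lgr5 lost their calls with an equal median (limma adjusted p = 0.0573 and 0.106), and Wnt6 did so with an equal median (0.252) and without the trend (0.0971). Differences of genes at low levels are limited by the shrinkage of the deposited values and by a depth that is unknown, so an uncalled low gene was not detectably changed here. Same-numbered samples share a pattern whose origin the labels do not give.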
